A study of Cavia porcellus with 30 samples.

Results

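The transcripts described here were close to silent in cultured guinea pig kidney cells and were picked up in libraries of cells exposed to the high dose of mercuric chloride for 12 h. They were chosen by a fixed rule on the kallisto estimated counts, the number of read pairs that the software assigns to a transcript. A transcript was a member when it reached 1 estimated count in at most 1 of the 5 vehicle libraries at 12 h and 3 estimated counts in at least 4 of the 5 high-dose libraries at 12 h. Its mean level also had to be below 1 TPM (a level that corrects for transcript length and library total) in each of the 6 groups. The rule found 91 of 25824 listed transcripts, or 0.352%.

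The cells were primary renal proximal tubular epithelial cells isolated from male Hartley guinea pigs aged 6 to 8 weeks. They received either vehicle, which was Hepatocyte Maintenance Medium, or mercuric chloride at 30 µM (low dose) or 40 µM (high dose), and RNA was collected after 12 or 24 h. Each of the 6 combinations of treatment and time had 5 poly-A-selected libraries. The sources do not say whether the 5 libraries of a group came from separate animals or cultures, so the p-values measure only the spread between these libraries, which may be technical. These were cultured cells without the rest of the kidney, and because the identifiers could not be paired with gene names the cell type was not checked against marker genes.

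The proximal tubule is the main site at which the kidney takes up mercuric ions, which bind to thiol groups of proteins and glutathione and injure these cells. A differentiated cell transcribes a large part of its genome weakly or not at all, and RNA from such genes leaves only a few reads in a library. At this level a zero does not mean that a transcript is missing, since sampling alone can give it. Transcripts that share sequence add a further limit, because kallisto divides a read that fits several transcripts among them by an iterative estimate, and the resulting value need not be a whole number. A transcript whose estimates were whole in all 30 libraries is called whole here, and one with a value that was not whole in at least 1 library is called fractional. Of the 91 members, 36 were whole and 55 were fractional. The deposited tables list Ensembl transcript identifiers, and 0 of the 25824 could be matched to a symbol in the gene table used here, so members are described by identifier or by length.

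The 30 libraries held between 21651452 and 35021210 estimated counts. High-dose libraries at 12 h held 23464210 to 27114730 and vehicle libraries at 12 h 22359147 to 34237468, so the group that detected the members was not the more deeply sequenced. A transcript at 0 in a library may still have had up to 3 counts by counting error, which is the floor used below. Intervals and floors cover counting error only.

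The members stood just inside their thresholds in many cases, and these values are a description because the rule used them. In 28 members all 5 high-dose libraries at 12 h reached 3 counts, in 63 only 4 did, and 116 further transcripts met the other criteria with 3 libraries. In 38 members no vehicle library at 12 h reached 1 count, in 53 members 1 library did, and 92 transcripts outside the rule had 2 such libraries. The fourth-highest value of the high-dose group was exactly 3 in 17 members, and the highest such value just outside was 2.94. Only 23 transcripts were left out by the TPM limit alone. The highest group mean among members was 0.954 TPM and the lowest among those 23 was 1.01 TPM.

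At 12 h the summed level of the 36 whole members lay in the order of the doses, given here as a description because the rule chose on the vehicle and high-dose libraries. Their sums in CPM (counts scaled to a library total of 1000000) were 0.234, 0.151, 0.313, 0.285 and 0.310 in vehicle replicates 1 to 5. In the low-dose group they were 2.93, 1.85, 2.21, 2.39 and 2.45, and in the high-dose group 6.13, 13.1, 9.04, 17.9 and 6.71. All 5 low-dose libraries lay between the vehicle and the high-dose libraries. The choice of members sets these ends, and the vehicle libraries at 24 h also fell between them, so the order is no support for a dose order. The group values were 0.258 ± 0.0680, 2.37 ± 0.390 and 10.6 ± 4.94 CPM (mean ± SD, n = 5). In these bulk samples, fewer cells of a type and less RNA per cell cannot be told apart.

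The 55 fractional members had a higher sum and a wider spread. Their summed level was 2.77 to 5.16 CPM in the vehicle libraries at 12 h. It was 29.7, 15.1, 7.32, 17.3 and 39.2 CPM in the low-dose libraries and 36.9, 54.7, 37.1, 56.6 and 39.5 CPM in the high-dose libraries. The low-dose and high-dose ranges overlapped, through low-dose replicate 5, in which ENSCPOT00000041096.1 held 41.6% of the sum. Without this transcript, left out after its values were seen, that library stood at 22.9 CPM. The low-dose range was then 7.32 to 29.7 CPM and the high-dose range 35.4 to 55.2 CPM, with no overlap. The rule set the vehicle and high-dose ends, so this gap is no support for a dose order. The means were 3.36 ± 1.02, 21.7 ± 12.6 and 45.0 ± 9.84 CPM (SD, n = 5).

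At 24 h the sums in all 3 groups were below those of the high dose at 12 h. The whole members summed to 0.542 to 1.01 CPM in vehicle libraries and to 1.21, 1.35, 1.40, 1.54 and 0.775 CPM in low-dose libraries. In high-dose libraries they summed to 1.11, 1.31, 1.13, 1.05 and 3.30 CPM, so all 5 lay above the vehicle libraries, with a narrow gap between 1.01 and 1.05 CPM. The fractional members summed to 6.23, 20.04, 10.5, 11.9 and 8.10 CPM in vehicle libraries, 14.2 to 25.3 CPM in low-dose libraries and 16.1 to 27.0 CPM in high-dose libraries. Vehicle replicate 2 lay inside the range of both exposed groups. Without ENSCPOT00000041096.1, low-dose replicate 5 stood at 9.78 CPM and the low-dose range was 9.78 to 16.1 CPM. Vehicle replicates 3 and 4, at 10.5 and 11.9 CPM, then lay inside that range, and replicate 2, at 20.02 CPM, above it. No test is given for a sum over the members.

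**Figure D1:**
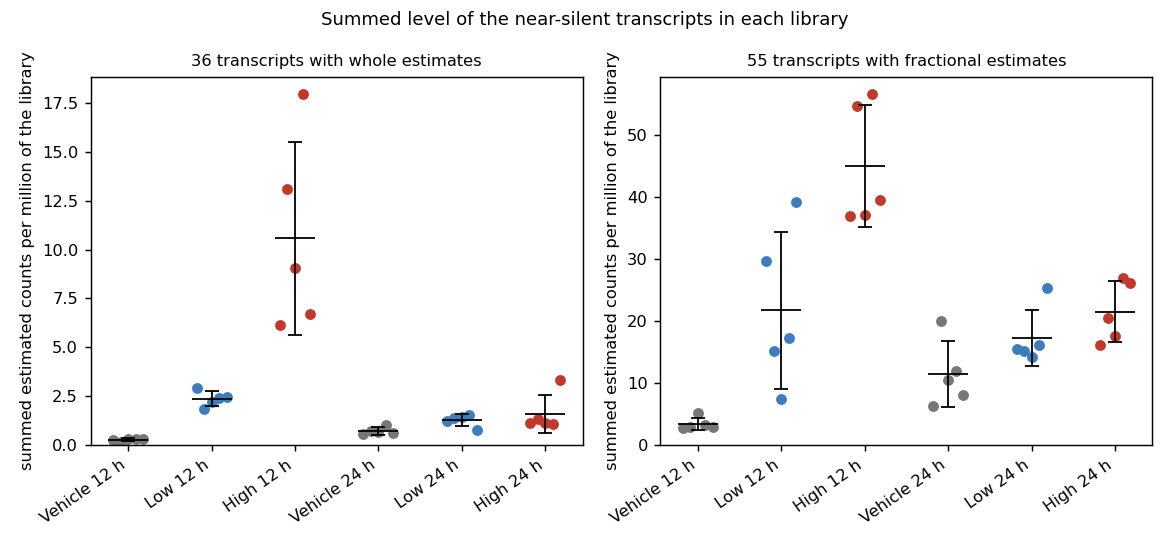
Summed level of the 36 whole members (left) and the 55 fractional members (right) in each library, in CPM, with points for libraries and lines for the group mean ± SD (n = 5). In the left panel the low-dose libraries at 12 h, at 1.85 to 2.93 CPM, sit between vehicle and high dose, and in the right panel replicate 5 alone reaches the high-dose libraries, with 41.6% of its sum from 1 transcript.

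Other faint transcripts also summed to more in 4 of the 5 high-dose libraries at 12 h than in any vehicle or low-dose library of that time. The 7639 near-silent transcripts that are no members, meaning those with a mean below 1 TPM in each group and a count in at least 1 library, summed to 1848 to 1999 CPM in vehicle and 1786 to 1845 CPM in low-dose libraries at 12 h. In the high-dose libraries at 12 h they summed to 2274, 2229, 2161, 2556 and 1930 CPM. Replicate 4 was the highest high-dose library for this sum and for the whole and fractional members, and its part in the members' result was not tested. At 24 h the sums were 1827 to 1986, 1648 to 1874 and 1791 to 2067 CPM for vehicle, low and high dose.

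The number of members with at least 1 count had the same order of groups at 12 h. It was 16, 7, 10, 7 and 13 of 91 in the vehicle libraries, 43 to 53 in the low-dose libraries and 78 to 86 in the high-dose libraries. At 24 h it was 23 to 31 for vehicle, 47, 38, 32, 45 and 24 for low dose and 40 to 48 for high dose. The high-dose range at 24 h thus lay above the vehicle range, while low-dose replicate 5 lay within it. The rule set the vehicle and high-dose ends at 12 h. Of the 7639 other near-silent transcripts, 3146 to 3688 had at least 1 count in vehicle libraries at 12 h. It was 3245 to 3610 at the low and 3446 to 3997 at the high dose. At 24 h the ranges were 3248 to 3621, 3015 to 3667 and 3237 to 3499, and they overlapped.

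Member by member, the median of the group mean was 0.200 estimated counts in vehicle, 2.47 in low-dose and 9.20 in high-dose libraries at 12 h. At 24 h the medians were 0.800, 1.80 and 1.80. On the TPM scale the same medians were 0.00582, 0.0778 and 0.280 at 12 h and 0.0212, 0.0412 and 0.0515 at 24 h. The high-dose means at 12 h ran from 2.60 to 97.6 estimated counts. The whole members had medians of 0.200, 1.5 and 6.60 estimated counts at 12 h and 0.200, 0.600 and 0.900 at 24 h, against 0.450, 3.60, 12.5, 2.41, 2.80 and 4.00 for the fractional members in the same order of groups.

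The order of the group mean CPM values describes the same members without a test. High dose at 12 h was the highest of the 6 groups in 82 of 91 members, in 36 of 36 whole and 46 of 55 fractional members. Vehicle was below low dose and low dose below high dose at 12 h in 73 members, of which 34 were whole. The rule chose on vehicle and high dose at 12 h, which favours both of these counts. By mean estimated counts, low dose at 12 h was below high dose at 12 h in 81 of 91 members. Among the 7639 other near-silent transcripts it was so in 4141. The orders in CPM were not counted in those transcripts. From 12 to 24 h the low-dose mean was lower in 61 members and higher in 28. In vehicle it was higher at 24 h in 62 members and lower in 17, a direction that the choice of transcripts near 0 in vehicle at 12 h favours. At 24 h, high dose was above vehicle in 60 members and below in 26, and low dose was above vehicle in 48 and below in 35.

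**Figure D2:**
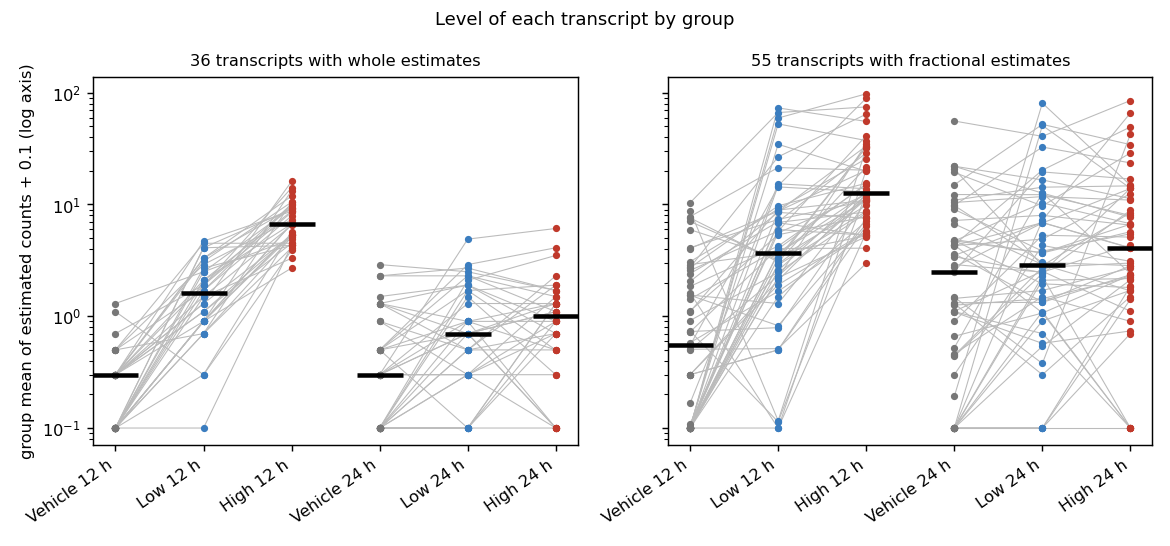
Group mean of estimated counts for each member, with 0.1 added and a log axis, for whole (left) and fractional (right) members across the 6 groups. Each thin line joins the means of 1 transcript at 12 h or at 24 h, and black bars mark the median of each panel. At the high dose these medians were 6.60 (whole) and 12.5 (fractional) counts at 12 h, and 0.900 and 4.00 at 24 h.

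Few members were detected as firmly elsewhere as in the high-dose group at 12 h, where the rule itself fixed 91 of 91 and 25.2% of the 7639 other near-silent transcripts met the same count threshold. At least 3 counts in at least 4 of 5 libraries were reached by 5 members (5.49%) in low-dose libraries at 12 h, where 23.1% of those others did so. At 24 h, 1 member (1.10%) reached it in vehicle, 6 (6.59%) in low-dose and 8 (8.79%) in high-dose libraries, beside 23.4%, 23.3% and 23% of the other near-silent transcripts. In vehicle at 24 h, 48 members (52.7%) had a count in at most 1 of 5 libraries, against 46.8% of the others.

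Applying the same rule to every ordered pair of groups placed the 91 beside counts found in the same way. The 30 pairs share libraries, so they are a description. The pairs that ended in the high dose at 12 h gave 91 transcripts from vehicle at 12 h, 89 from vehicle at 24 h, 65 from low dose at 24 h, 50 from low dose at 12 h and 47 from high dose at 24 h. The other 25 pairs gave 16 to 38, with a median of 26. Exchanging the groups, so that a transcript was near 0 at the high dose and detected in vehicle at 12 h, gave 26. Of the 89 transcripts found from vehicle at 24 h, 48 were members.

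Whole and fractional transcripts parted in this comparison. Pairs that ended in another group held 0 to 5 whole and 15 to 38 fractional transcripts. Against vehicle, the high dose at 12 h gave 36 whole and 55 fractional transcripts with the 12 h libraries and 36 and 53 with the 24 h libraries. From the low dose at 12 h it gave 6 whole and 44 fractional. The exchanged pair held 2 whole transcripts.

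**Figure D3:**
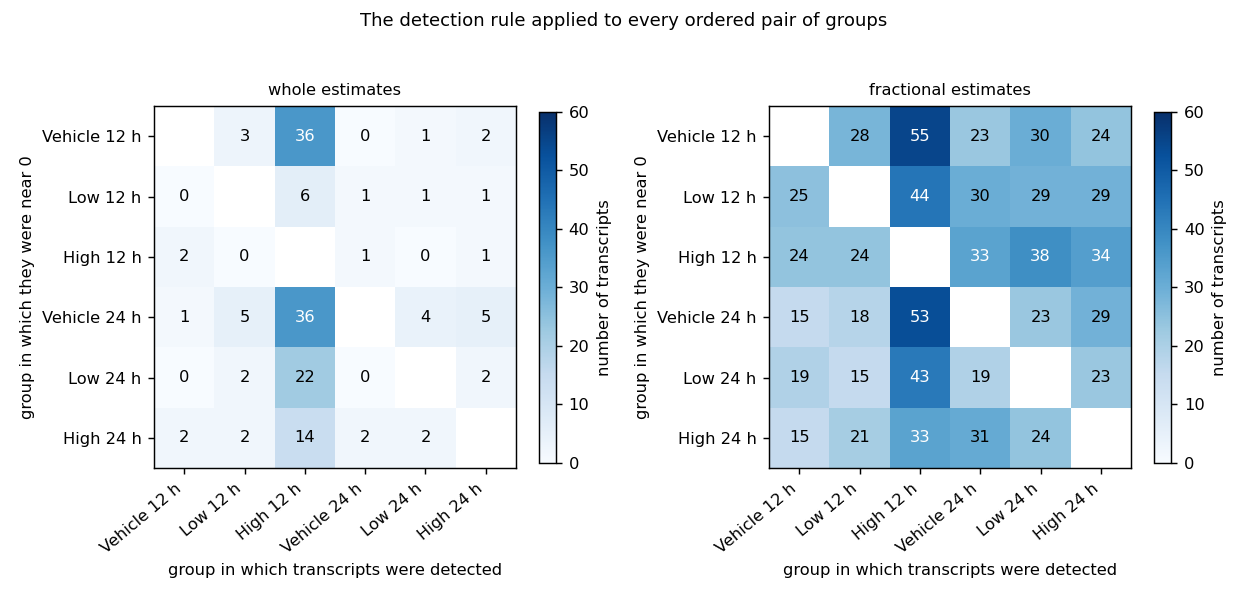
Number of transcripts meeting the same rule for each ordered pair of groups, for whole (left) and fractional (right) estimates, with the group near 0 in rows and the group of detection in columns. The column of the high dose at 12 h holds 6 to 36 whole transcripts, and the other cells of the left panel hold 0 to 5.

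Equal depth changed these counts little. The chance that each transcript met the count thresholds was calculated exactly for binomial thinning of the rounded counts of every library to the smallest total, and these chances were summed. After thinning, 87.9 transcripts would be expected for the rule, 33.1 of them whole, and 79.1 of the 91 members. Pairs that ended in another group gave 15.9 to 33.4 expected transcripts, and those that ended in the high dose at 12 h 49.2 to 91.4. The exchanged pair gave 26.7.

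Lengths are given without a test. Those of the members ran from 574 to 9965 bases with a median of 2462. The 1924 other near-silent transcripts with 3 counts in at least 4 of 5 high-dose libraries at 12 h had a median of 2871 bases, above that of the members, and the 7639 near-silent non-members one of 1874. Whole members had a median of 1909.5 bases (574 to 4677) and fractional members one of 3084 bases (744 to 9965). Whole estimates made up 39.6% of members, 42.7% of the 1924 and 45.6% of the 7639.

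**Figure D4:**
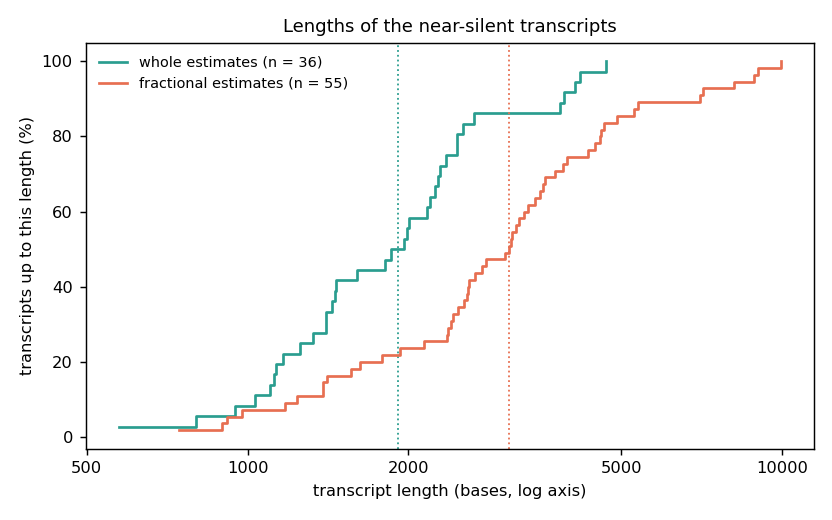
Cumulative share of transcripts up to each length in bases (log axis) for the whole members and the fractional members. The curve of the whole members, with a median of 1909.5 bases, lies to the left of the curve of the fractional members, with a median of 3084 bases.

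Fractional members switched between high values and 0 within a group. Of their 808 values above 0, 676 (83.7%) were not whole and 90 (11.1%) were below 1. Among fractional members with a group mean of at least 5 counts, 35 of 53 had a library below 1 count in high-dose libraries at 12 h, a share that the rule's 4-of-5 threshold permits. In groups whose detection the rule did not use it was 21 of 24 in low-dose libraries at 12 h, 14 of 14 in vehicle, 18 of 21 in low-dose and 24 of 26 in high-dose libraries at 24 h. In the other near-silent transcripts with fractional estimates this share was 47.8% to 51.1% over the 6 groups, and in those with whole estimates it was 2.53% to 4.36%. Of the whole members with such a mean, 4 of 26 had a library below 1 count in high-dose libraries at 12 h.

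The 3 whole members with the highest high-dose means at 12 h show what the counts looked like. They were picked after their values were seen. A transcript of 2653 bases had 6, 30, 10, 30 and 4 counts in the high-dose libraries at 12 h, 1, 0, 0, 0 and 0 in vehicle and 0, 1, 1, 3 and 1 at the low dose. At 24 h it had 0 in all vehicle and all low-dose libraries and 0, 0, 0, 1 and 3 at the high dose. Its 5 high-dose libraries at 12 h lay above all others.

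The transcript with the second-highest mean, of 1440 bases, had 13, 7, 7, 30 and 13 counts in high-dose libraries at 12 h, 0 in all vehicle libraries and 4, 1, 2, 0 and 2 at the low dose. At 24 h it had 0, 0, 1, 0 and 1 in vehicle, 5, 4, 4, 1 and 0 with the low dose and 6, 1, 1, 3 and 9 with the high dose. It was thus above the floor of 3 counts in 3 low-dose and 2 high-dose libraries at 24 h.

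Another, of 3846 bases, had 9, 9, 7, 33 and 8 counts in high-dose libraries at 12 h, 0 in all vehicle libraries and 1, 1, 1, 1 and 0 at the low dose. At 24 h it had 0 in vehicle, a single 2 in a low-dose library and 0, 0, 0, 1 and 1 at the high dose. The 2653-base and 3846-base transcripts were within the floor of 3 counts in each library at 24 h, unlike the 1440-base one, and no fold change is given for them at that time.

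The tests reported here compared only groups that the count thresholds did not use, although the TPM limit covered all groups. One alternative, with all 30 libraries in 1 fit, held the libraries used by the rule and is left out of the counts of alternatives below. Counts were fitted with edgeR's quasi-likelihood test on all transcripts with at least 10 counts over the libraries compared, with Benjamini-Hochberg adjustment and a threshold of 0.1, the one the study used. For high dose against vehicle at 24 h, 56 of the 91 members entered the fit and 6 (10.7%) passed, all higher at the high dose. Without high-dose replicate 2 there were 6 calls with 2 of them lower. Of the 56, 19 reached the 10 counts of the filter in the high-dose group and not in vehicle, and 6 in vehicle and not in the high-dose group, so the share of members that passed is no support for a direction. Over all 20029 transcripts tested, 22.3% passed, 10.6% as higher and 11.7% as lower. The members' share was near the share of higher calls and is not a result about the members.

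At an unadjusted p under 0.05 there were 11 members (19.6%), beside 28.9% of all transcripts. The log2 difference was positive in 38 members and negative in 18, with a median of 0.62, or 0.41 with members at 0 in a group taken at their bound, against 0.00 for all transcripts tested. Of the 6, 3 were whole members among 11 tested and 3 were fractional among 45.

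For low dose against vehicle at 24 h, 53 members were tested and 2 passed, both higher (4 without low-dose replicate 3, with 1 lower), against 16.6% of 20033 transcripts in either direction, 8.24% higher and 8.34% lower. The median log2 difference was 0.28, or 0.035 with bounds. High dose against low dose at 24 h gave 1 of 61 members, higher at the high dose, with 2.49% of 20067 transcripts called, 1.17% higher and 1.33% lower. For the low dose, 24 h against 12 h gave 2 of 67, with 1 higher and 1 lower at 24 h, beside 6.78% of 20100 transcripts, 3.37% higher and 3.41% lower. There the median log2 difference was -0.65, or -0.52 with bounds. In these 3 comparisons 7, 1 and 5 members (13.2%, 1.64% and 7.46%) had an unadjusted p under 0.05. Over all transcripts tested the shares were 24.1%, 12.5% and 16.3%. The filter was again reached by 1 group alone in many members. It was low dose and not vehicle in 15 members and the reverse in 3, high and not low dose in 8 and the reverse in 7, and low dose at 12 h and not at 24 h in 19 and the reverse in 6. The signs of these medians are no support for a direction either.

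The 4 comparisons gave 11 calls in all, and in all 11 the higher group alone reached the 10 counts of the filter. The directions and folds given next therefore describe the counts and are no independent evidence of a direction, however many alternatives kept a call.

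The member called at both doses at 24 h was ENSCPOT00000023334.2, a whole transcript of 1989 bases that is named here after its values were seen. At 12 h it had 0, 0, 0, 0 and 1 counts in vehicle, 3, 1, 1, 7 and 3 in low-dose libraries and 8, 16, 5, 14 and 9 in high-dose libraries. At 24 h it had 0, 1, 0, 0 and 0 in vehicle, 2, 4, 9, 6 and 3 in low-dose libraries and 1, 7, 3, 4 and 15 in high-dose libraries. All 5 low-dose libraries and 4 of 5 high-dose libraries at 24 h lay above the vehicle libraries.

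For ENSCPOT00000023334.2 the log2 difference at 24 h was 4.24 ± 1.15 (SE) at the high dose (edgeR adjusted p = 0.0261) and 3.83 ± 1.01 at the low dose (edgeR adjusted p = 0.029). With 1 count in vehicle in all, the ratio of counts per depth was 29.8 at the high dose (exact 95% counting interval 4.96 to 1216) and 22.1 at the low dose (3.60 to 908). Without high-dose replicate 5 the former was 18.2, and without vehicle replicate 2, which held the single count, the bounds were at least 2.22 and at least 1.61. Over the alternatives that gave an adjusted p, it passed in 16 of 16 at the high dose (0.00529 to 0.0659) and in 15 of 15 at the low dose (0.0236 to 0.0721).

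The other 5 members called at the high dose at 24 h were less stable. The whole transcript of 1440 bases described above had a ratio of 9.94 (2.41 to 87.7) and a log2 difference of 3.03 ± 1.03 (SE, edgeR adjusted p = 0.0696). Only 3 of its 5 high-dose libraries lay above all vehicle libraries, and the ratio was 15.6 without vehicle replicate 5. A whole transcript of 4185 bases had 0 in all vehicle libraries and 2, 7, 2, 0 and 6 at the high dose, at least 1.19-fold higher against the floor of 3 counts per library, with 4 of 5 libraries above 0 (adjusted p = 0.0638). Without high-dose replicate 2 or 5 the bound was 0.849 or 0.944, below 1, so no increase was then bounded.

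Among the fractional ones, a transcript of 3225 bases had a single vehicle library above 0, at 1.69, and 13.6, 8.34, 0, 4.68 and 17.3 at the high dose, a ratio of 21.9 (5.70 to 186) that 4 of 5 libraries showed (adjusted p = 0.0476), or at least 2.92 without vehicle replicate 5. One of 4326 bases had 67.9, 62.6 and 80.7 counts in high-dose replicates 1, 3 and 4 and under 1 in the other two, beside 6.55 in its highest vehicle library, a ratio of 30.2 (14.4 to 76.1, adjusted p = 0.0593), or at least 13.1 without that library. One of 2589 bases had 10 counts in all at the high dose and none in vehicle, with 4 of 5 libraries above 0 (adjusted p = 0.0967), too few for a fold change. It met the 10-count filter exactly at its limit. Over the alternatives that gave an adjusted p, they were called in 9 of 16 (1440 bases), 10 of 15 (4185), 15 of 16 (3225), 7 of 16 (4326) and 4 of 11 (2589).

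The calls in the other comparisons rested on few libraries as well. A fractional transcript of 9000 bases had 115, 0, 0, 74.1 and 64.8 counts at the low dose at 24 h and under 1 in each vehicle library, at least 14.6-fold higher (edgeR adjusted p = 0.0631). The 4326-base transcript was the one called between the doses at 24 h, with 1.38 counts as its highest low-dose value and a ratio of 230 (40.9 to 9134, adjusted p = 0.0602), or at least 13.7 without low-dose replicate 4. Between 12 and 24 h of the low dose, a whole transcript of 1455 bases fell from 4, 2, 11, 3 and 3 counts to 0, 0, 1, 1 and 0. Its log2 difference was -3.21 ± 0.92 (SE, adjusted p = 0.0882), and each library at 12 h lay above all libraries at 24 h. The ratio of counts per depth was 12.4 (3.05 to 108), 20.5 without replicate 3 and 18.8 without replicate 4 at 24 h. A fractional transcript of 4593 bases rose from at most 0.0821 counts to 12.4, 24.8, 78.3, 47.2 and under 1, at least 10.4-fold higher (adjusted p = 0.065), or at least 5.93-fold without replicate 3 at 24 h. It had 43.6 counts in a vehicle library at 12 h. Over the alternatives these 4 calls held in 9, 8, 7 and 6 of 16.

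By the rule for named transcripts, the members with the highest and lowest log2 differences for high dose against vehicle at 24 h were taken, among those with a high-dose mean of at least 5 counts at 12 h. All 4 were fractional, and none passed the threshold of 0.1 by edgeR. ENSCPOT00000040057.1, of 4911 bases, had 0 in all vehicle libraries at 24 h and 0, 39.7, 0, 0 and 289 at the high dose, at least 24.0-fold higher (adjusted p = 0.101). That bound rested on high-dose replicate 5 and was 3.64-fold without it. At 12 h it had 76.5, 109, 42.1, 145 and 0 at the high dose, 229, 0, 0, 66.6 and 35.9 with the low dose and 51.3 in 1 vehicle library. The same transcript thus went from 0 to 289 counts between libraries of 1 group.

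ENSCPOT00000041096.1, of 7108 bases, had at most 0.458 counts in vehicle at 24 h and 32.1 and 41.6 in high-dose replicates 2 and 4, at least 5.14-fold higher (adjusted p = 0.106), since the vehicle libraries were 0 after rounding. The bound was 3.48 without replicate 2 and 2.95 without replicate 4. At the low dose it had 365 counts in replicate 5 at 12 h and 381 in replicate 5 at 24 h, with 22.1 in replicate 2 at 24 h and 0 in the remaining libraries to within 1 count. Those values made up 41.6% and 61.4% of the summed counts of the 55 fractional members in their libraries. At the high dose at 12 h it had 37.7, 145, 0, 32.3 and 60.8 counts.

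ENSCPOT00000042633.1, of 5367 bases, had 13.4, 0, 0, 0 and 7.78 counts in vehicle at 24 h and 0 in all high-dose libraries (adjusted p = 0.143), after 7.28, 0, 15.3, 21.4 and 30.9 in high-dose libraries at 12 h. ENSCPOT00000019763.2, of 4469 bases, had 13.9 and 19 counts in vehicle replicates 2 and 5 at 24 h and 7.95 in 1 high-dose library, with a log2 difference of -1.99 ± 1.71 (SE, adjusted p = 0.516). Without that library the high-dose group was 0 after rounding and at least 2.42-fold lower than vehicle, a bound that fell to 1.54 or 1.49 when vehicle replicate 2 or 5 was left out too. At 12 h its high-dose values were 17.8, 10, 5.97, 8.88 and 10.9. In both, vehicle and high-dose libraries at 24 h overlapped.

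**Figure D5:**
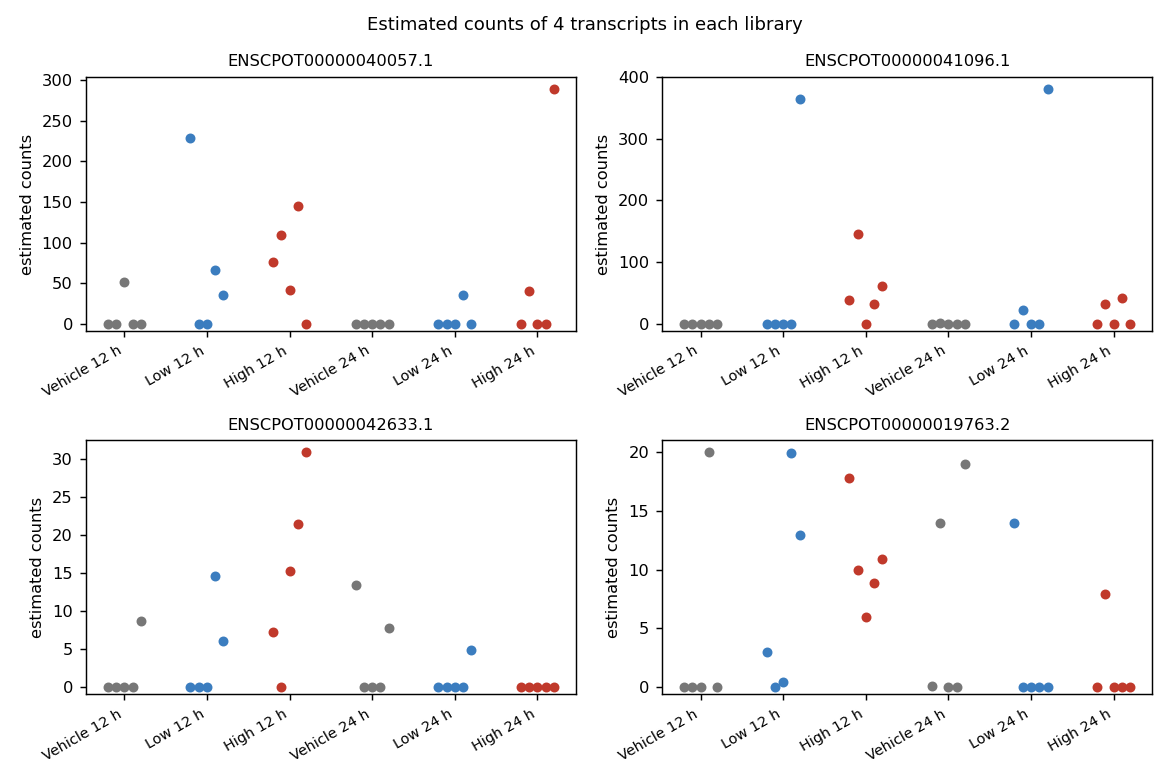
Estimated counts of the 4 rule-named transcripts in each library of the 6 groups, with 1 point per library and 1 panel per transcript. Values of 0 and values up to 381 counts stand side by side within groups, as for ENSCPOT00000041096.1 at the low dose at 24 h.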

How the data were processed

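RNA-seq libraries were analysed, 30 in all and 5 in each of 6 groups. The authors pseudo-aligned paired reads to the Ensembl guinea pig transcriptome with kallisto (version 0.42.4 in the submitters' processing notes; the Ensembl release is not given in the sources used here). They deposited, for each library, estimated counts, which need not be whole, and TPM, computed by the authors with kallisto. Transcript lengths were read from the same deposited tables.

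The members and lists were chosen with earlier results of these data known. CPM divides estimated counts by the library's total, without further scaling. For tests, estimated counts were rounded and fitted with edgeR 4.0.16 (R 4.3.3) using TMM scaling, for transcripts with at least 10 counts over the libraries compared, and only the groups compared entered a fit. Adjusted p under 0.1 was the threshold. Scripts were tested on simulated data. The floor was 3 counts per library.

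At most 4 identifiers were named by rule: the 2 highest and 2 lowest log2 differences for high dose against vehicle at 24 h, among members tested there with a high-dose mean of at least 5 counts at 12 h. Alternatives were DESeq2 1.42.0, limma 3.58.1 on log2(TPM + 0.1), other filters and thresholds, all 30 libraries in 1 fit, equal depth and each library left out. Gene and marker lists were not run because identifiers could not be matched to names, and no sequences are shown for the same reason.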

Additional observations from a re-analysis of the deposited data

Results flagged for a closer look

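Within each group of 5 libraries, the highest or lowest library was compared with its nearest neighbour by Dixon's ratio against its critical value of 0.71. Of 62 sets examined, 15 had a library that stood apart. For normally distributed values about 5% of sets would do so by chance, but that share does not hold for sets with most libraries at or near 0, and the sums over fractional and over all members overlap. Sets whose highest value was at most 3 counts were not examined.

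For the summed level of the fractional members, vehicle replicate 3 at 12 h stood at 5.16 CPM (others 2.77 to 3.21) and low-dose replicate 5 at 24 h at 25.3 CPM (others 14.2 to 16.1). ENSCPOT00000040057.1 held 44.5% of the former sum and ENSCPOT00000041096.1 held 61.4% of the latter. Without ENSCPOT00000041096.1, low-dose replicate 5 at 24 h was the lowest of its group, at 9.78 CPM. The same libraries stood apart in the sum over all members, at 5.47 and 26.1 CPM. For the whole members, high-dose replicate 5 at 24 h stood at 3.30 CPM (others 1.05 to 1.31).

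Among the named transcripts, ENSCPOT00000040057.1 stood apart at 51.3 counts in vehicle replicate 3 at 12 h, 35.6 counts in low-dose replicate 4 at 24 h and 289 counts in high-dose replicate 5 at 24 h. ENSCPOT00000041096.1 did so at 365 and 381 counts in low-dose replicate 5 at 12 h and at 24 h. For ENSCPOT00000042633.1 the values were 8.74 counts in vehicle replicate 5 at 12 h and 4.87 in low-dose replicate 5 at 24 h. For ENSCPOT00000019763.2 they were 20 counts in vehicle replicate 4 at 12 h, 14 in low-dose replicate 1 at 24 h and 7.95 in high-dose replicate 2 at 24 h.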

How the results depend on the processing

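The number of members depended on the thresholds: 91 became 28 when all 5 high-dose libraries had to reach 3 counts, 55 with at least 5 counts, 38 with no vehicle library at a count and 36 with whole estimates only. With 1 library left out, the rule asked for 3 of the 4 remaining high-dose libraries, or at most 1 of the 4 remaining vehicle libraries, so the number could only rise. It was 114 to 153, highest without high-dose replicate 3 at 12 h, and above 1.5 times 91 also without high-dose replicate 1 (140) or 5 (145) or vehicle replicate 1 (149). These values do not separate the library from the looser threshold. For high dose against vehicle at 24 h, 6 members called became 0 of 7 tested with filterByExpr (0 at unadjusted p under 0.05), 2 at adjusted p under 0.05 and 10 with all 30 libraries in 1 fit. It was 3 to 6 with a library left out, 3 without vehicle replicate 3, and 6 with 2 lower without high-dose replicate 2. These were not always the same members. Of the 6 called without vehicle replicate 4, 3 were among the main 6, and with DESeq2 4 of 6 were. For low dose against vehicle at 24 h, 2 became 0 of 6 with filterByExpr, 1 at 0.05 and 6 with all libraries. It was 1 to 4 with a library left out, 4 without low-dose replicate 3 (1 of them lower) or 5 and 1 without low-dose replicate 4 or vehicle replicate 3 or 5. For high against low dose, 1 became 0 with filterByExpr, at 0.05 and with limma, and was 0 to 1 with a library left out, 0 without high-dose replicate 3 or 4 or low-dose replicate 1, 2, 3 or 4. For the low dose over time, 2 became 0 with filterByExpr and at 0.05, 1 with limma and 4 with all libraries, and was 0 to 2 with a library left out. It was 0 without replicate 1, 2 or 4 at 24 h or 4 at 12 h, and 1 without replicate 3 at 24 h or 1, 2, 3 or 5 at 12 h. The 1 call without replicate 1, 2 or 3 at 12 h was not among the main 2. With filterByExpr the median log2 difference turned to -0.21 for low dose against vehicle and -0.23 for high against low dose. The cause was not tested. No direction of a named transcript reversed, but sizes moved. For ENSCPOT00000040057.1, at 0 in every vehicle library, the fitted log2 value was 22.60 with DESeq2 (adjusted p = 2.2e-12), 1.58 with limma (0.31) and 6.46 to 9.49 by edgeR with a library left out (9.17 with none), so none of these is a size of change. ENSCPOT00000040057.1 passed the threshold in 5 of 16 alternatives and ENSCPOT00000041096.1 in 4, the fit with all libraries left out. No paired analysis was run, because the labels' sample numbers do not repeat between groups. As a check added after seeing the data, libraries at the same place in each group's run of title numbers were compared. Their deviations from the group means had a median correlation of -0.0027 over 62 pairs, highest at 0.37. At other places it was 0.0011 over 313 pairs, highest at 0.35. For the low dose at 12 and 24 h, the 5 same-place pairs ran from -0.0097 to 0.37. With 5 libraries and few counts per transcript, depth and spread limit these comparisons.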
